A study of Homo sapiens with 4 samples.

Results

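The 10 genes followed here belong to the smooth muscle type contractile apparatus: the actins ACTA2 and ACTB, the tropomyosins TPM1, TPM2 and TPM4, the filament-binding proteins CALD1, TAGLN, CNN1 and CNN3, and the myosin light chain MYL9. They were taken by gene symbol, and all 10 were found among the 57905 genes of the count table. The RNA came from A549 cells, a line long established from a human lung adenocarcinoma, and was sequenced to ask how expression differs when DCBLD2, a transmembrane receptor-like protein, is raised or reduced. There were 4 libraries, 1 per condition. The conditions were a scramble control (sc), an shRNA against DCBLD2 (shDCBLD2), an empty vector and DCBLD2 overexpression. Per the methods, hairpins against DCBLD2 were delivered by lentivirus from the vector pLV-H1-EF1α-puro, and the DCBLD2 coding sequence from pLV-EF1-MCS-IRES-Bsd with blasticidin selection. The shDCBLD2 library is titled shD5; which hairpin sequence that title stands for, and the vector of the scramble control, are not given in the sources used here. Counts on genes came to 19104052 in sc, 21537283 in shDCBLD2, 18718562 in the empty vector library and 16601633 in the library labelled overexpression.

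Actin filaments and myosin motors produce force in every cell, and smooth muscle builds a denser version of the same machine. Tropomyosins lie along the actin filament, caldesmon and calponins bind it and restrain the motor, transgelin bundles it, and phosphorylation of the regulatory light chain switches myosin on. Many of these genes are known targets of serum response factor (SRF), which binds a DNA element called the CArG box and works with the cofactors MRTFA, MRTFB and, in muscle, myocardin (MYOCD). In epithelial tumor cells several of them are also known as parts of stress fibers.

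Promoter windows from RefSeq (GRCh38.p14) reach from 250 bases before to 50 bases after the start of the gene. They were matched for 7 of the 10 genes. ACTB, TAGLN and MYL9 had no entry in the set of windows used. The CArG box, a pattern whose reverse complement is the same pattern, so that 1 search covers both strands, was present in 1 of these 7 windows, that of TPM4, and in 454 of 35116 promoters in all (1.29%). Among 12 related contractile genes outside the 10, 5 windows held it. The windows of TPM4 and of the abundant relatives ACTG1 and CNN2 are shown because these genes were well counted in all 4 libraries, and that of ACTC1, the cardiac actin, because it was counted at most once in any library. Capitals mark the CArG box. The stretches are chr19:16067355-16067384 on the plus strand for TPM4, chr17:81512874-81512903 on the minus strand for ACTG1, chr19:1026509-1026538 on the plus strand for CNN2 and chr15:34795639-34795668 on the minus strand for ACTC1.
TPM4: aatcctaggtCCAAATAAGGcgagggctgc
ACTG1: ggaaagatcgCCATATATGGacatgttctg
CNN2: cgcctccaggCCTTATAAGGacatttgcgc
ACTC1: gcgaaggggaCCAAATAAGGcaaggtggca
All 4 stretches lie before the start of the gene; the box of TPM4 begins 173 bases before it and that of ACTG1 begins 94 bases before it. A second motif, the MCAT element CATTCC, searched on both strands, was in 1 of the 7 windows, that of CALD1, and in 14.0% of all promoters. A match describes the letters of the window only. With 1 window per gene, a window without a match says nothing about other starts of that gene or bases farther away.

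The targeted gene was examined first. DCBLD2 was at 504 CPM (a count relative to the library total, after TMM scaling) in sc, 197 CPM in shDCBLD2, 434 CPM in the empty vector library and 242 CPM in the library labelled overexpression of DCBLD2. The transcript was therefore lower in both manipulated libraries than in their controls, and the second of these differences goes against the label. The log2 ratio was -1.35 (95% interval -1.40 to -1.30) for shDCBLD2 against sc and -0.84 (-0.90 to -0.79) for the library labelled overexpression against its empty vector control. That library also stood apart in another way. In it, 66 genes reached 50 counts or more while staying at 3 or fewer in every other library, and each of the other 3 libraries held 0 such genes. With 1 library per condition there is no replicate check and no p-value, each comparison is one of libraries and not of conditions, and the exact Clopper-Pearson intervals cover counting error only. Genes were called when the ratio was at least 2-fold and the interval excluded no change. The empty vector was also set against sc to show how far separately made control lines differ; sc and the empty vector thus each serve in more than 1 comparison.

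Transgelin was the gene that moved most. TAGLN, an actin-bundling protein widely used as an early smooth muscle marker, was at 34.0 CPM in sc, 102 CPM in shDCBLD2, 24.7 CPM in the empty vector library and 114 CPM in the library labelled overexpression. Both manipulated libraries were high and both controls low, with no overlap of the counting intervals between them. Ratio intervals that exclude no change were common at this depth. In shDCBLD2 against sc, 29.8% of all genes past the filter had one above 0 and 27.1% one below. In the library labelled overexpression against its empty vector control these shares were 31.9% and 36%. The log2 ratio of TAGLN was 1.58 (1.46 to 1.71), or 2.99-fold, for shDCBLD2 against sc. For the library labelled overexpression against its empty vector control it was 2.20 (2.06 to 2.36), or 4.61-fold. The empty vector was lower than sc, with a log2 ratio of -0.46 (-0.64 to -0.29), so the controls differed too, by less than either of the former.

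TAGLN was the single gene of the 10 called in shDCBLD2 against sc, where 1.16% of the 13966 genes with a mean of at least 1 CPM were called higher and 5.62% lower. It was likewise the single one called in the library labelled overexpression against its empty vector control, where 6.42% of genes were called higher and 5.35% lower. Between the empty vector and sc none of the 10 was called, beside 2.22% of genes higher and 1.89% lower. All 10 genes passed the expression filter. The range of TAGLN over the 4 libraries, 2.20 on the log2 scale, was wider than that of 94.4% of the genes past the filter, whose median range was 0.78.

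**Figure D1:**
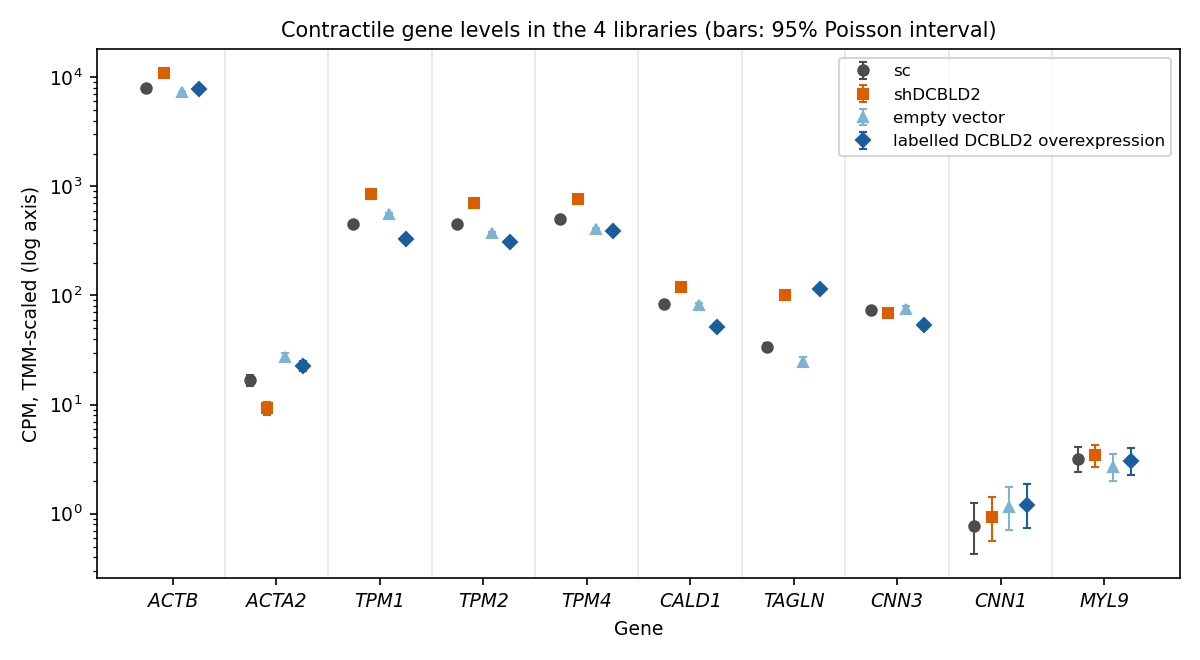
Level of each of the 10 genes in each library, in TMM-scaled CPM on a log axis; bars are 95% Poisson intervals. TAGLN is high in both manipulated libraries, the tropomyosins and CALD1 are highest in shDCBLD2 and lowest in the library labelled overexpression, and the points of CNN1 and MYL9 lie at 3.43 CPM or below.

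The actins came next by role. ACTB, the cytoplasmic beta actin, was at 7973 CPM in sc, 10836 CPM in shDCBLD2, 7348 CPM in the empty vector library and 7737 CPM in the library labelled overexpression. Its level was highest in shDCBLD2, and the other 3 libraries lay close together. The log2 ratio of ACTB was 0.44 (0.43 to 0.45) for shDCBLD2 against sc, 0.07 (0.06 to 0.09) for the library labelled overexpression against its empty vector control and -0.12 (-0.13 to -0.11) for the empty vector against sc. ACTA2, the alpha actin of vascular smooth muscle, was at 16.7 CPM in sc, 9.23 CPM in shDCBLD2, 27.3 CPM in the empty vector library and 22.5 CPM in the library labelled overexpression. It was lowest in shDCBLD2, the library where most of the other genes were highest, and the controls were far apart. Its log2 ratio was -0.85 (-1.12 to -0.60) for shDCBLD2 against sc and -0.28 (-0.47 to -0.08) for the library labelled overexpression against its empty vector control. The ratio of the empty vector to sc was 0.70 (0.50 to 0.91), nearly as far from 0 as the first. With the control libraries exchanged, the ratio of ACTA2 became -1.55 for shDCBLD2, which is past 2-fold, and 0.43 for the library labelled overexpression, which turns its sign.

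ACTB was the reference gene of the study's RT-PCR, so its place among 12 other commonly used reference genes was examined. Their median log2 ratio was 0.03 for shDCBLD2 against sc, with GUSB lowest at -0.32 and HPRT1 highest at 0.63, and 10 of the 12 lay below ACTB. In the library labelled overexpression against its empty vector control the median was -0.05, from -0.71 for PPIA to 0.55 for TBP, and for the empty vector against sc it was 0.04, from -0.39 for TUBA1B to 0.36 for B2M. None of the 12 was called in any comparison. For the library labelled overexpression against its control 9 of the 12 lay below ACTB, and 5 between the controls. The range of ACTB over the 4 libraries was 0.56 on the log2 scale, beside a median of 0.78 over genes past the filter. Scaled to ACTB counts, the log2 ratio of DCBLD2 in shDCBLD2 against sc was -1.79, and its median over the other 12 references was -1.38. Scaling all genes to ACTB moved the median of all genes to -0.43 in that comparison, -0.12 for the library labelled overexpression and 0.11 for the empty vector against sc. The calls in shDCBLD2 against sc then came to 62 higher and 1814 lower, where TMM scaling gave 162 and 785. For the library labelled overexpression they came to 820 higher and 965 lower, where TMM gave 897 and 747, so the balance of calls turned. Between the empty vector and sc they came to 452 higher and 198 lower, where TMM gave 310 and 264. Library totals alone turned the balance of this last comparison, with 255 higher and 303 lower.

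The tropomyosins behaved alike in the shDCBLD2 library. TPM1 was at 451 CPM in sc, 852 CPM in shDCBLD2, 558 CPM in the empty vector library and 329 CPM in the library labelled overexpression. TPM2 was at 448, 698, 377 and 306 CPM in the same order. TPM4 was at 500, 760, 403 and 387 CPM. For each of them shDCBLD2 was the highest library and the library labelled overexpression the lowest, although TPM4 was nearly level between the latter and its control. For shDCBLD2 against sc the log2 ratio was 0.92 (0.88 to 0.95) for TPM1, which is just short of 2-fold, 0.64 (0.60 to 0.68) for TPM2 and 0.60 (0.57 to 0.64) for TPM4. For the library labelled overexpression against its empty vector control it was -0.76 (-0.81 to -0.72) for TPM1, -0.30 (-0.35 to -0.24) for TPM2 and -0.06 (-0.11 to -0.01) for TPM4. The controls differed by a log2 ratio of 0.31 for TPM1, -0.25 for TPM2 and -0.31 for TPM4, so the ratios of TPM2 and TPM4 in the second comparison were no larger than those between control lines or close to them. These signs held under every scaling tried. With ACTB as the scale the ratios for shDCBLD2 against sc were 0.47 for TPM1, 0.20 for TPM2 and 0.16 for TPM4. With the control libraries exchanged, those for shDCBLD2 were 0.61 for TPM1, 0.89 for TPM2 and 0.92 for TPM4. Those for the library labelled overexpression were then -0.46 for TPM1, -0.55 for TPM2 and -0.37 for TPM4. TPM3, the remaining tropomyosin gene, lies outside the 10 and had log2 ratios of 0.56, -0.42 and -0.16 in the 3 comparisons.

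Of the other filament-binding proteins, caldesmon followed the tropomyosins. CALD1 was at 83.8 CPM in sc, 121 CPM in shDCBLD2, 81.3 CPM in the empty vector library and 51.8 CPM in the library labelled overexpression. The controls were level, shDCBLD2 was high and the library labelled overexpression was low. The log2 ratio of CALD1 was 0.53 (0.44 to 0.62) for shDCBLD2 against sc and -0.65 (-0.77 to -0.53) for the library labelled overexpression against its empty vector control. With ACTB as the scale the former was 0.09. CNN3, the acidic calponin found outside muscle as well, was at 73.5 CPM in sc, 69.6 CPM in shDCBLD2, 75.2 CPM in the empty vector library and 53.3 CPM in the library labelled overexpression. Only the last library was low, with a log2 ratio of -0.50 (-0.62 to -0.38) to its control, and the ratio for shDCBLD2 against sc was -0.08 (-0.18 to 0.03).

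Of the 10 genes, CNN1 and MYL9 had the fewest counts. CNN1, the basic calponin of smooth muscle, had 15 counts in sc, 20 in shDCBLD2, 21 in the empty vector library and 20 in the library labelled overexpression. MYL9, the smooth muscle type regulatory light chain, had 62, 74, 49 and 50 counts in that order. No library stood out for either gene, and a difference was not detectable at this depth. The log2 ratio of CNN1 for shDCBLD2 against sc was 0.24 (-0.76 to 1.34), an interval that reaches past 2-fold, and that of MYL9 was 0.11 (-0.39 to 0.62).

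**Figure D2:**
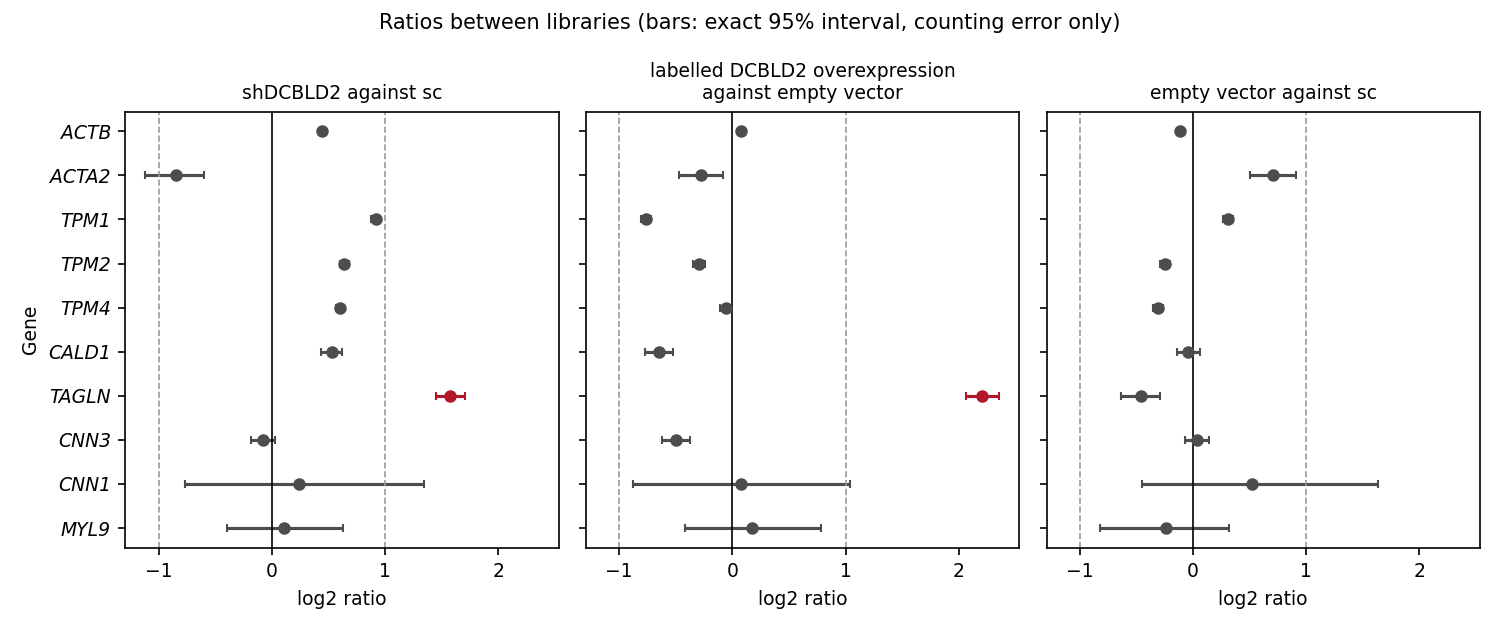
Log2 ratios of the 10 genes in the 3 comparisons, with exact 95% intervals for counting error; dashed lines mark 2-fold and red marks called genes. TAGLN lies beyond the upper line in both comparisons with a manipulated library and at -0.46 between the controls, while ACTA2 lies at -0.85 in shDCBLD2 against sc and at 0.70 between the controls.

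Over the 10 genes the median log2 ratio was 0.49 for shDCBLD2 against sc, with 8 above 0 and 2 below, beside a median of 0.01 over all 13966 genes. With ACTB as the scale that median of the 10 was 0.04, beside -0.43 over all genes. For the library labelled overexpression against its empty vector control it was -0.17, with 4 above and 6 below, beside -0.04 over all genes. For the empty vector against sc it was -0.08, with 4 above and 6 below, beside -0.01. Of all genes past the filter, 7111 lay above 0 and 6835 below for shDCBLD2 against sc. These counts were 6574 and 7392 for the library labelled overexpression against its control, and 6876 and 7069 for the empty vector against sc. For shDCBLD2 against sc, the interval lay above 0 for 6 of the 10 and below for 1, beside 29.8% and 27.1% of all genes. The 10 genes thus did not share a direction in any of the comparisons. By the root-mean-square difference of their centred log2 CPM over the 4 libraries, TPM2 and TPM4 were nearest to each other (0.0939), CALD1 was nearest to TPM2 (0.138) and TPM1 to CALD1 (0.152). TAGLN was far from all of them, its nearest being ACTB at 0.857, and the nearest to ACTA2 was CNN1 at 0.485.

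Outside the 10, the same measure was taken against TAGLN over the 4 libraries for the 9155 genes with a mean of at least 10 CPM. JUN, a subunit of the transcription factor AP-1, was nearest (0.424), at 49.99 CPM in sc, 96.1 CPM in shDCBLD2, 53.0 CPM in the empty vector library and 147 CPM in the library labelled overexpression. NKX2-5, a homeodomain factor of the developing heart, followed (0.427), at 9.25, 32.5, 14.2 and 33.4 CPM in that order. The next were P2RY2, a nucleotide receptor, MON1A, a factor of vesicle transport, and CDC25A, a cell cycle phosphatase. With 4 libraries such a likeness is a description of these libraries alone.

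**Figure D3:**
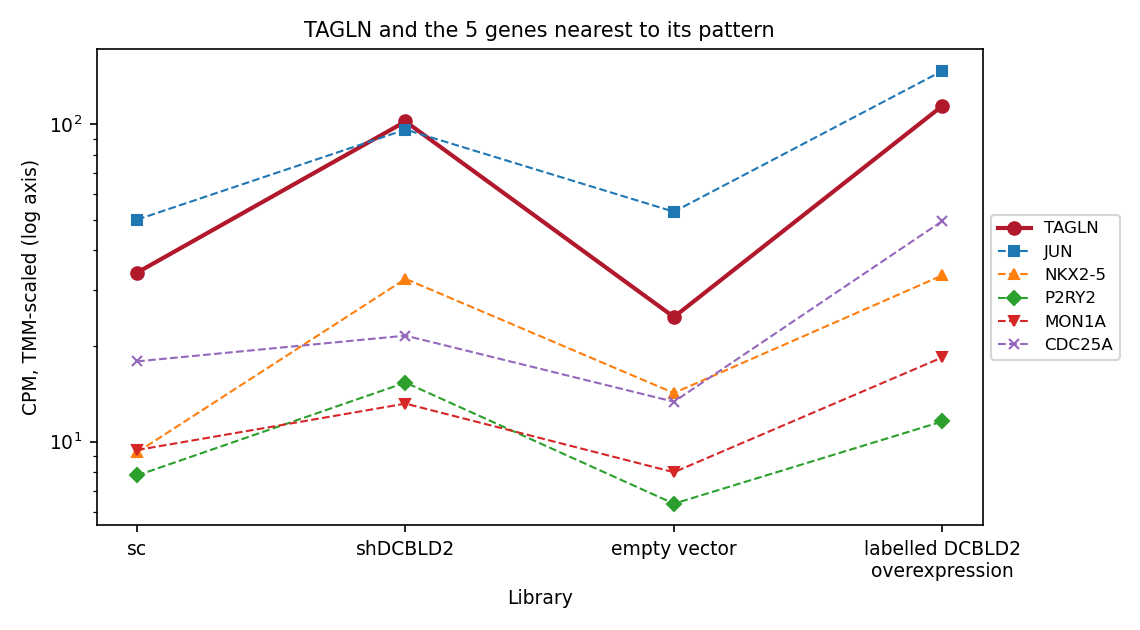
TMM-scaled CPM on a log axis of TAGLN and the 5 genes nearest to its pattern, in the 4 libraries; the lines guide the eye, since the libraries have no order. All 6 genes are higher in shDCBLD2 than in sc and higher in the library labelled overexpression than in its empty vector control. The 5 were chosen for likeness to TAGLN in these same 4 libraries, so the shared direction is no separate result. Between the controls JUN (0.08) and NKX2-5 (0.61) lie above a log2 ratio of 0. TAGLN (-0.46), P2RY2 (-0.29), MON1A (-0.23) and CDC25A (-0.42) lie below it.

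Levels of different genes were compared per length, as the deposited FPKM. ACTB led with 2213 to 3333 FPKM over the 4 libraries, followed by TPM2 with 75.3 to 173, TPM4 with 51.9 to 103 and TPM1 with 38.6 to 101. The ranges of the tropomyosins overlap one another and those of ACTB and TPM2 do not. CNN3 lay between 18.7 and 26.6 FPKM, TAGLN between 6.18 and 29.0, CALD1 between 5.19 and 12.2 and ACTA2 between 3.05 and 8.84, each range overlapping the next. MYL9 lay between 2.18 and 2.87 FPKM and CNN1 between 0.27 and 0.41, below all the others.

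Of the FPKM of their families, TAGLN, ACTA2, CNN1 and MYL9 each made up less than 5%. TAGLN made up 1.91% of transgelin FPKM in sc, 3.92% in shDCBLD2, 1.33% in the empty vector library and 4.87% in the library labelled overexpression, and nearly all of the remainder was TAGLN2. ACTA2 made up between 0.0429% and 0.158% of actin FPKM, CNN1 between 0.321% and 0.603% of calponin FPKM, and MYL9 between 1.30% and 2.39% of the FPKM of the regulatory light chains. The main members were ACTG1 and ACTB among the actins, CNN2 among the calponins and MYL12B among the light chains. Of 12 such relatives outside the 10 genes, 8 passed the filter and none was called in any comparison; their median log2 ratio was 0.20 for shDCBLD2 against sc, 0.01 for the library labelled overexpression and 0.06 between the controls. The most counted was ACTG1, with log2 ratios of 0.20, -0.0046 and 0.07. TPM3 was the highest for shDCBLD2 at 0.56 and MYL6B the lowest at -0.43, while MYL12B was the lowest for the library labelled overexpression at -0.79 and MYL6, an essential light chain, the highest at 0.35. ACTG2, the enteric smooth muscle actin, had 4 counts in sc, 13 in shDCBLD2, 0 in the empty vector library and 13 in the library labelled overexpression.

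The label of smooth muscle was checked against 9 defining markers, of which 5 passed the filter. DES had at most 4 counts in any library, PLN at most 2 and KCNMB1 at most 1, and MYH11, the smooth muscle myosin heavy chain, had 21, 32, 20 and 34 counts. The summed level of the 9 was 149.6 CPM in sc, 190.8 CPM in shDCBLD2, 191.7 CPM in the empty vector library and 199.99 CPM in the library labelled overexpression. Most of it came from PPP1R14A, an inhibitor of myosin phosphatase, at 92.9, 99.9, 134 and 125 CPM. SMTN, smoothelin, was at 46.6, 78.9, 49.4 and 60.2 CPM. The 9 markers were thus not alike: DES, PLN and KCNMB1 were at or near 0, MYH11 and LMOD1 were low with at most 34 and 28 counts, and PPP1R14A and SMTN were well counted in all 4 libraries. In bulk RNA, fewer cells of a kind and less RNA per cell cannot be told apart. MYOCD, the SRF cofactor of muscle, was called higher in shDCBLD2 against sc, with 52 counts in sc, 167 in shDCBLD2, 63 in the empty vector library and 73 in the library labelled overexpression. Its log2 ratio was 1.51 (1.09 to 2.02). SYNPO2, an actin-bundling protein of the Z-disc, was called lower in the same comparison at -1.01 (-1.52 to -0.56), just past the 2-fold threshold. It had 108 counts in sc, 58 in shDCBLD2, 56 in the empty vector library and 102 in the library labelled overexpression. Of all genes, 1.16% were called higher and 5.62% lower in shDCBLD2 against sc. The controls themselves differed for SYNPO2, at -0.83 (-1.35 to -0.38), and shDCBLD2 was about level with the empty vector library.

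SRF and its partners were examined as the known regulators of these genes. Apart from MYOCD, given above with the smooth muscle markers, the list holds SRF, MRTFA, MRTFB, ELK1, ELK3, ELK4 and SCAI. None of these 7 was called in any comparison, and the median log2 ratio was 0.21 for shDCBLD2 against sc, -0.25 for the library labelled overexpression against its empty vector control and 0.01 between the controls. SRF was at 53.6 CPM in sc, 75.4 CPM in shDCBLD2, 47.0 CPM in the empty vector library and 71.8 CPM in the library labelled overexpression, with log2 ratios of 0.49 and 0.61 to the respective control. SRF was high in the 2 libraries in which TAGLN was high, and a link between them was not tested. In the library labelled overexpression against its empty vector control, 6 of the 10 genes lay below 0, beside 7392 of all 13966 genes. TPM1, TPM2 and CALD1 were among the 6. MRTFA, the most counted of the list, was almost level at 107, 103, 108 and 114 CPM. MRTFB was lowest for shDCBLD2 at -0.29 and differed by -0.84 between the controls.

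Of the 12 genes of the myosin motor and its control, 2 were called, both lower in the library labelled overexpression than in its empty vector control, where 5.35% of all genes were called lower. These were PPP1CB and PPP1R12A, the catalytic and the targeting subunit of myosin phosphatase, with log2 ratios of -1.01 (-1.12 to -0.90) and -1.26 (-1.49 to -1.05). The ratio of PPP1CB lay just past the 2-fold threshold. In shDCBLD2 against sc PPP1CB and PPP1R12A stood at 0.30 and 0.15, and MYLK, the kinase of the light chain, was the lowest at -0.82. The highest was RHOB at 0.55, and MYH9, the most counted, stood at 0.53. The median of the list was 0.10 for shDCBLD2 against sc, -0.24 for the library labelled overexpression and -0.33 between the controls. Of 17 genes of stress fibers and focal adhesions none was called. In shDCBLD2 against sc 13 lay above 0 and the median was 0.39, from PDLIM5 at -0.97 to CSRP1, a LIM protein, at 0.91, and FLNA, the most counted, stood at 0.18. In the other comparisons the medians were 0.04 and 0.01.

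Epithelial markers moved beside these genes. Of 5 markers 3 were called lower in shDCBLD2 against sc, CDH1 at -2.38 (-2.61 to -2.18), EPCAM at -1.37 (-2.16 to -0.76) and KRT19 at -1.14 (-1.28 to -1.0), and the median was -1.14; of all genes 5.62% were called lower. In the library labelled overexpression against its empty vector control KRT19 at 1.53 (1.44 to 1.63) and EPCAM at 1.18 (0.67 to 1.79) were called higher, beside 6.42% of all genes, and the median was 0.62. Their summed level was 13496 CPM in sc, 7635 CPM in shDCBLD2, 9566 CPM in the empty vector library and 14698 CPM in the library labelled overexpression, with KRT8 the most abundant and none at 0. Most of the sum was KRT8 and KRT18, at 8208.5 and 5168 CPM in sc. TAGLN was high where this sum was lowest and also where it was highest, whereas the tropomyosins and CALD1 were highest where it was lowest. Between the controls, the sum differed as well and no epithelial marker was called. The sum was lower in the empty vector library than in sc. The log2 ratio of the empty vector to sc was 0.31 for TPM1, -0.25 for TPM2, -0.31 for TPM4 and -0.04 for CALD1.

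Of 10 fibroblast markers 4 passed the filter, and their summed level was 38.2 CPM in sc, 59.4 CPM in shDCBLD2, 45.5 CPM in the empty vector library and 82.3 CPM in the library labelled overexpression, mostly COL1A1 at 32.7, 54.0, 35.5 and 63.1 CPM. COL1A2 had 17, 1, 0 and 67 counts and COL3A1 had 9, 18, 6 and 68 counts in that order. Both were below 1 CPM in the other 3 libraries and passed the filter only through the library labelled overexpression, so no weight is put on their calls. POSTN, below the filter, had 42 counts in the library labelled overexpression and 0 in the others, and THY1 was called higher in the empty vector library than in sc at 1.39 (0.99 to 1.86). FAP was at 0 in all 4 libraries, DCN had 4 counts and LUM 1 count in the library labelled overexpression and 0 in the others. The part of the epithelial and fibroblast markers, and of the 66 genes counted in the library labelled overexpression alone, in the levels of the 10 genes was not tested.

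Some counts may be shared with other genes. Whether counting used the strand is not given in the sources used here. TAGLN (ENSG00000149591, chr11:117070037-117075498 in the deposited coordinates, whose build the table does not name) overlaps PCSK7 on the opposite strand by 446 bases, and PCSK7 had 635 counts in sc, 1086 in shDCBLD2, 536 in the empty vector library and 607 in the library labelled overexpression. ACTA2 (ENSG00000107796, chr10:90694831-90751147) overlaps STAMBPL1 on the opposite strand by 40080 bases, introns included, and STAMBPL1 had 284, 570, 260 and 99 counts in the same order. ACTA2 also overlaps FAS on the opposite strand by 734 bases, with 50, 108, 107 and 28 counts, and ACTA2-AS1 by 5538 bases, with at most 5 counts in any library. An antisense gene within TPM1 had 45, 113, 39 and 26 counts, few beside those of TPM1. RP5-977B1.7 overlaps MYL9 on the opposite strand by 8342 bases and had 4, 1, 11 and 7 counts. MYL9 itself had 62, 74, 49 and 50. ACTB and ACTG1 are near-identical in coding sequence, so reads between them are uncertain; the 10 entries named as ACTB pseudogenes held at most 10 counts in any library together.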

How the data were processed

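The authors deposited a read count per gene, not normalized, and FPKM values, which divide those counts by the exonic gene size and the library total. The libraries were made from poly(A) RNA. The aligner and the counting program are not given in the sources used here; the submitters' processing notes list the mouse build mm9, while the gene identifiers are human Ensembl. Counts were scaled with TMM factors (edgeR 4.0.16, R 4.3.3), which were 1.02 in sc, 1.00 in shDCBLD2, 0.981 in the empty vector library and 0.994 in the library labelled overexpression. Log2 ratios used a prior count of 2 in proportion to library size. This scaling of the prior, relative to the mean of the 4 libraries, was settled after results had been seen, in order to follow an earlier analysis of these data, whose calls it matched; the prior first used was scaled within each pair of libraries and is among the alternatives. Intervals are exact Clopper-Pearson intervals. Genes with a mean of at least 1 CPM entered the summaries. Steps after scaling used Python 3.11.15 with scipy 1.17.1 and pandas 2.3.3, and were tested on simulated data. The 10 genes and the 8 further lists were chosen with earlier results of these data known. Of the lists, the genes called in any comparison and the most counted, highest and lowest were eligible to be named, with the 5 genes nearest to the pattern of the member with the widest range; ACTG2, DES, PLN, KCNMB1, MYH11, SMTN, LMOD1, POSTN, FAP, DCN, LUM, SRF, CNN2, TAGLN2 and ACTC1 were named after their values were seen. MRTFA and MRTFB were matched by Ensembl identifier. Alternatives were DESeq2 1.42.0 size factors, library totals or ACTB as the scale, other prior counts, the other control library, counts drawn to the smallest total, deposited FPKM, a 1.5-fold threshold, other filters and sums over entries of a symbol.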

Additional observations from a re-analysis of the deposited data

How the results depend on the processing

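No called gene among the 10 changed direction under any alternative. The log2 ratio of TAGLN ranged from 1.14 to 2.04 for shDCBLD2 against sc and from 1.74 to 2.23 for the library labelled overexpression against its empty vector control. Values below are for shDCBLD2 against sc (A), the library labelled overexpression against its empty vector control (B) and the empty vector against sc (C). With ACTB as the scale, 1 of the 10 genes was called lower in A, and of all genes 62 were higher and 1814 lower. With the control libraries exchanged, 1 of the 10 was called lower in A, and of all genes 311 were higher and 1119 lower in A and 1128 higher and 1254 lower in B, where the balance turned. At a 1.5-fold threshold, 4 of the 10 were called higher and 1 lower in A, 2 lower in B and 1 higher in C; of all genes 689 were higher and 1618 lower in A, 1789 and 2484 in B, and 987 and 932 in C. Without a filter, which adds genes, 417 were higher and 1272 lower in A, 1873 higher in B, and 594 higher and 524 lower in C. With a mean of at least 5 CPM, which removes genes, 60 were higher and 337 lower in A, 339 and 493 in B, and 96 and 84 in C. The balance in B thus turned here too, as it did at a 1.5-fold threshold and with ACTB as the scale. The cause of the shifts with another control was not tested. Scalings of the prior count were added after seeing the data. Scaled within each pair of libraries, the form initially used, the prior gave 163 higher and 789 lower in A, 893 and 739 in B, and 309 and 264 in C; not scaled at all, it gave 161 and 796, 902 and 732, and 312 and 262. Signs of uncalled ratios turned for MYL9 and CNN1 with ACTB as the scale, for MYL9 with counts drawn down and for CNN1 with the control exchanged in A, for ACTA2, ACTB and MYL9 with the control exchanged in B, and in C for CALD1 with ACTB as the scale and CNN3 with library totals or FPKM. With ACTB as the scale the median of the 10 became 0.04 in A, from 0.49, and 0.04 in C, from -0.08. In C it became -0.14 with library totals or FPKM. In B it became -0.29 with a mean of at least 5 CPM, from -0.17. Depth limits CNN1 and MYL9.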
